A study of Caenorhabditis elegans with 21 samples.

Results

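The cytosolic ribosome of *C. elegans* is built from proteins whose genes are named rpl, for the large subunit, and rps, for the small subunit. Every gene whose name starts with rpl- or rps- followed by a number was taken, by name and not by any measured value, and mitochondrial ribosomal proteins, named mrpl and mrps, were not. The rule gave 78 genes in both expression tables, 47 of the large and 31 of the small subunit, among 17720 genes of the adult table and 23184 genes of the L1 table. Some proteins of the ribosome carry other names, are outside the list and are given separately. These are the stalk proteins (rla genes), the products of ubl-1 and ubq-2, which are fused to ubiquitin-like proteins, and the scaffold protein rack-1 of the small subunit.

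Ribosomal protein genes are among the most strongly transcribed genes of a growing cell, and their products are needed in equal amounts because each ribosome holds a single copy of nearly all of them. Their synthesis is costly, and in animals it is linked to food through the TOR kinase, which drives growth when nutrients are present and acts on the small subunit protein S6 through S6 kinase. In *C. elegans* the adult gonad, which makes eggs, holds much of the animal's ribosome production, while larvae that hatch without food arrest at the first larval stage (L1) and stop growing. The X chromosome is largely silent in germ cells of this species, and a few housekeeping proteins are encoded by an autosomal and an X-linked copy.

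RNA from whole wild-type N2 animals was sequenced in 21 libraries, 3 independent biological replicates for each of 7 groups. The adult libraries came from about 100 hand-picked day 1 animals each. Control adults were always fed, and F4 L1starved adults had been starved for 6 days as L1 larvae in their own and all preceding generations of the paradigm, 5 generations in all. F4 L1starved adults were sorted by eye into fertile animals, which like the controls carried eggs, and sterile animals, which carried none, so that the sterile group was chosen for its reproductive state. Both kinds were picked from the same plate of F4 L1starved animals, so a fertile and a sterile library share a culture. The L1 libraries came from about 10000 larvae each. Control larvae had fed ancestors, and F4 L1starved + 3 fed larvae (called F4+3 here) descended from the starved lineage through 2 intervening fed generations, and both kinds were collected fed at 14 hours or starved at 18 hours after egg preparation. Fed and starved larvae thus differed in collection time as well as food, which cannot be told apart. In RNA of whole animals, fewer cells of a type and less RNA per cell cannot be told apart either.

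Adult libraries held 12187063 to 22942483 counted reads and L1 libraries 25209530 to 53482585. No pair of replicates was alike within counting noise, with a chi-square per gene of at least 6.47 where counting noise alone gives 1. Values are counts as normalized by DESeq2, in which a size factor corrects each library for its depth. A gene was called where the Benjamini-Hochberg adjusted p of limma was under 0.05 in adults and under 0.1 in L1 larvae, the thresholds of the study, and every adjusted p below is from that fit over 13413 genes in adults and 15902 genes in larvae whose mean over libraries reached 10. These p-values measure the spread between the biological replicates. A log2 fold change is given ± its standard error from limma, and a mean or share ± the SD of 3 libraries. All 78 genes passed that filter in adults, rpl-42 only through the sterile animals, and 77 passed it in larvae, where rpl-42 did not. Adult libraries differed in their cell type markers. The summed normalized count of 20 oocyte and egg genes ran from 293193 to 340612 in controls, 190309 to 237951 in fertile and 28106 to 62400 in sterile F4 L1starved adults, and that of 42 sperm genes from 182 to 521, 422 to 1643 and 17262 to 22263, with ssp-32 at 0 in all control and all fertile libraries. That of 15 muscle genes ran from 179310 to 195895, 208703 to 230663 and 448819 to 524421. The part of cell composition in the adult results was not tested.

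The 78 genes took up a larger share of the RNA in larvae than in adults. They held 4.01%, 4.12% and 3.80% of all normalized counts in the 3 control adult libraries (3.98% ± 0.162, SD, n = 3), 3.30%, 3.42% and 3.12% in fertile (3.28% ± 0.151) and 2.32%, 2.87% and 2.54% in sterile F4 L1starved adults (2.57% ± 0.278). In larvae the share was 15.2%, 12.2% and 12.3% in fed controls (13.2% ± 1.72) and 9.40%, 9.70% and 9.04% in starved controls (9.38% ± 0.328). In F4+3 larvae it was 12.55%, 12.7% and 13.2% when fed (12.8% ± 0.340) and 8.58%, 9.60% and 9.55% when starved (9.24% ± 0.572). The 3 adult groups did not overlap, starved larvae lay below fed larvae in both lines, and control fed replicate 1 stood above its 2 fellow libraries. Adult and L1 tables were normalized separately, but a share within a library does not depend on its size factor.

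The differences between the adult groups were smaller without a few very abundant genes. Ribosomal RNA genes (rrn), which the library kit was designed to deplete, held 8.40% to 9.77% of control, 11.7% to 16.8% of fertile and 17.7% to 23.1% of sterile libraries. The yolk protein genes vit-1 to vit-6, made in the intestine, held 9.25% to 10.3%, 11.06% to 14.2% and 19.6% to 25.8%. With both sets left out of the total, an alternative chosen after seeing the data, the ribosomal protein share was 4.91% ± 0.240 (SD, n = 3) in control, 4.51% ± 0.229 in fertile and 4.49% ± 0.380 in sterile adults, and with the 10 largest genes outside the family left out it was 4.99%, 4.58% and 4.60%. The fertile and sterile means then lay within the spread of each other, while in larvae the fed and starved groups stayed apart at 14.3% and 10.23% in controls and 13.8% and 10.05% in F4+3 larvae.

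**Figure D1:**
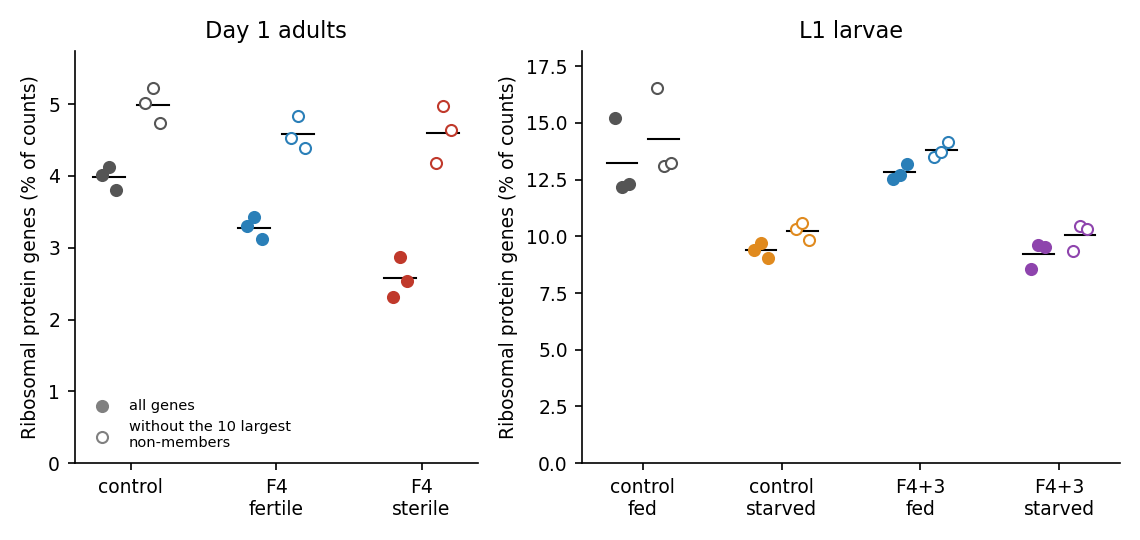
Share of the 78 ribosomal protein genes in each library, as a percent of all normalized counts of the library on the vertical axis, in 3 adult groups (left) and 4 L1 groups (right). Filled points are single libraries over all genes, open points the same libraries without the 10 largest genes outside the family, and lines are means of 3 libraries. Starved larvae lie below fed larvae on both scales, at 9.38% against 13.2% in controls, whereas fertile and sterile adults lie apart over all genes (3.28% and 2.57%) and side by side without the 10 largest (4.58% and 4.60%).

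Within the family, levels per coding length lay close together for most members. The normalized count per kilobase of coding sequence had a median of 14262 in adults with quartiles of 9762 and 16771, a ratio of 1.72 between the quartiles, and in larvae a median of 115872 with a ratio of 1.85. In adults rpl-41.2, of only 66 coding nucleotides, led with 71979 per kilobase, and in larvae rpl-36 led with 431837, followed by rps-21 with 408922. At the low end of the adult order stood rpl-42 with 25.8, rpl-24.2 with 916, and the X-linked copies rpl-25.1 with 2243 and rpl-11.2 with 3497. In larvae the lowest were rpl-42 with 5.44, rpl-11.1 with 2117 and rpl-24.2 with 7799 per kilobase, so the autosomal rpl-11.1 and the X-linked rpl-11.2 changed places. Of the 78 genes, 23 lay on chromosome I, 10 on II, 18 on III, 17 on IV, 8 on V and only rpl-11.2 and rpl-25.1 on X. The summed count of the large subunit genes over that of the small subunit genes was 1.402 to 1.421 in control adults, 1.378 to 1.397 in fertile and 1.364 to 1.403 in sterile adults. In larvae it was 1.528 to 1.55 in fed and 1.6 to 1.637 in starved controls, and 1.454 to 1.521 and 1.599 to 1.622 in F4+3 larvae, so starved libraries lay above fed ones in both lines.

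To see how acute hunger changed the family, starved L1 larvae were compared with fed larvae within each line. Ribosomal protein genes fell almost without exception. In controls 71 of 77 genes were lower and none higher (42 of 46 large and 29 of 31 small subunit genes), where 30.5% of all genes tested were lower and 27.6% higher. In F4+3 larvae 72 of 77 were lower and none higher (42 of 46 and 30 of 31), against 30.4% lower and 27.1% higher over all genes. The median log2 fold change of the members was -0.76 in controls and -0.68 in F4+3 larvae, and that of all genes 0.04 and 0.02.

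The quartiles of the members were -0.89 and -0.67 in controls and -0.84 and -0.60 in F4+3 larvae, and rpl-41.1 lay lowest. The genes rpl-41.1 and rpl-41.2, both on chromosome I, are named for the smallest ribosomal protein. Normalized counts of rpl-41.1 were 14600.1, 15663 and 18038 in fed and 2994, 4521 and 3318 in starved control larvae, and 16216, 19647 and 24738 and 5550.1, 4954 and 3784 in F4+3 larvae. Each starved library lay far below every fed one, by a log2 fold change of -2.17 ± 0.18 (adjusted p = 1.74e-07) in the control line and -2.08 ± 0.18 (adjusted p = 2.61e-07) in the F4+3 line. The other copy, rpl-41.2, fell by less, with log2 fold changes of -0.93 ± 0.19 (adjusted p = 0.000876) and -0.96 ± 0.19 (adjusted p = 0.000659). The share of rpl-41.1 in the summed counts of the pair went from 32.1% ± 7.98 (SD, n = 3) in fed to 16.6% ± 3.03 in starved controls and from 36.2% ± 5.8 to 21.2% ± 7.06 in F4+3 larvae. Reads of near-identical copies can be split between them, and how reads with several matches were counted is not given in the sources used here, so the split of any pair given here is uncertain.

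Next in order in control larvae came small subunit members. For rps-21 the counts were 130955, 129298 and 157742 in fed and 49202, 73561 and 57723 in starved controls, then 136254, 159691 and 177569 and 88841, 77879.8 and 56748 in F4+3 larvae, with log2 fold changes of -1.23 ± 0.19 (adjusted p = 6.09e-05) and -1.10 ± 0.19 (adjusted p = 0.000164). All fed libraries lay above all starved ones. The gene rps-9, whose product lies where the message enters the ribosome, changed by -1.21 ± 0.17 (adjusted p = 3.06e-05) and -1.11 ± 0.17 (adjusted p = 6.71e-05). In F4+3 larvae rpl-13 at -1.18 ± 0.15 (adjusted p = 8.14e-06) and rps-19 at -1.11 ± 0.18 (adjusted p = 8.19e-05) stood with them.

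The most abundant large subunit members fell too. For rpl-17, whose product lines the tunnel through which new proteins leave the ribosome, counts were 214046, 202622 and 228448 in fed and 97569.7, 131062 and 105342 in starved controls and 204841, 238718 and 220251 and 142859.6, 128897 and 100207 in F4+3 larvae. Fed and starved libraries did not overlap, with log2 fold changes of -0.96 ± 0.16 (adjusted p = 0.000154) and -0.85 ± 0.16 (adjusted p = 0.00044). For rpl-3, which lies near the site where peptide bonds form, counts were 223376, 155336 and 162789.7 against 121707, 110013 and 116837 in controls and 159958, 170071 and 177260.3 against 110179, 108558 and 109059.7 in F4+3 larvae. Here too the fed and starved libraries were apart, and the log2 fold changes were -0.62 ± 0.15 (adjusted p = 0.00249) and -0.63 ± 0.15 (adjusted p = 0.00215). The S6 kinase target rps-6 had counts of 119211, 70415 and 70144 in fed and 52868, 50317 and 50640.1 in starved controls, and 73192, 72199 and 68000.3 and 46969, 51041 and 51219 in F4+3 larvae. Its fed replicate 1 of the control line was far above the other fed libraries, all of which still exceeded the starved ones, and the log2 fold changes were -0.71 ± 0.17 (adjusted p = 0.00256) and -0.52 ± 0.17 (adjusted p = 0.0186).

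A handful of members did not pass. In controls these were rpl-24.2, rpl-39, rps-13, rpl-4, rps-29 and rpl-29, and in F4+3 larvae rpl-24.2, rpl-4, rpl-39, rps-13 and rpl-22, some of them named after their values were seen. The level of rpl-24.2, whose product resembles a factor that holds the place of ribosomal protein L24 in unfinished large subunits of yeast and mammals, was 4379.5, 3444 and 3844 in fed and 3440.2, 4198 and 3929.7 in starved controls and 3463, 3677 and 3642 and 3680, 4049 and 3741 in F4+3 larvae. Fed and starved control libraries overlapped, while in F4+3 larvae the starved libraries lay just above the fed ones, and the log2 fold changes were -0.01 ± 0.11 (adjusted p = 0.946) and 0.09 ± 0.11 (adjusted p = 0.526). When libraries were scaled by their totals, with or without the family, or by upper quartiles, it was among the higher calls in both lines, in controls with a turned sign. Its paralog rpl-24.1, the subunit protein itself, fell with the family, at -0.93 ± 0.14 (adjusted p = 7.39e-05) and -0.73 ± 0.14 (adjusted p = 0.000612). For rpl-4, another protein of the exit tunnel, counts were 176152, 109772 and 101506 against 116101, 92288 and 104183 in controls and 116392, 104547 and 94885 against 75029.6, 94804 and 103853 in F4+3 larvae. The groups overlapped in both lines, and the log2 fold changes were -0.27 ± 0.20 (adjusted p = 0.26) and -0.21 ± 0.20 (adjusted p = 0.384). In F4+3 larvae rpl-39 passed at -0.53 when starved replicate 3 was left out, whereas rps-6 lost its call with library totals or upper quartiles. That a gene did not pass does not show that it was unchanged.

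**Figure D2:**
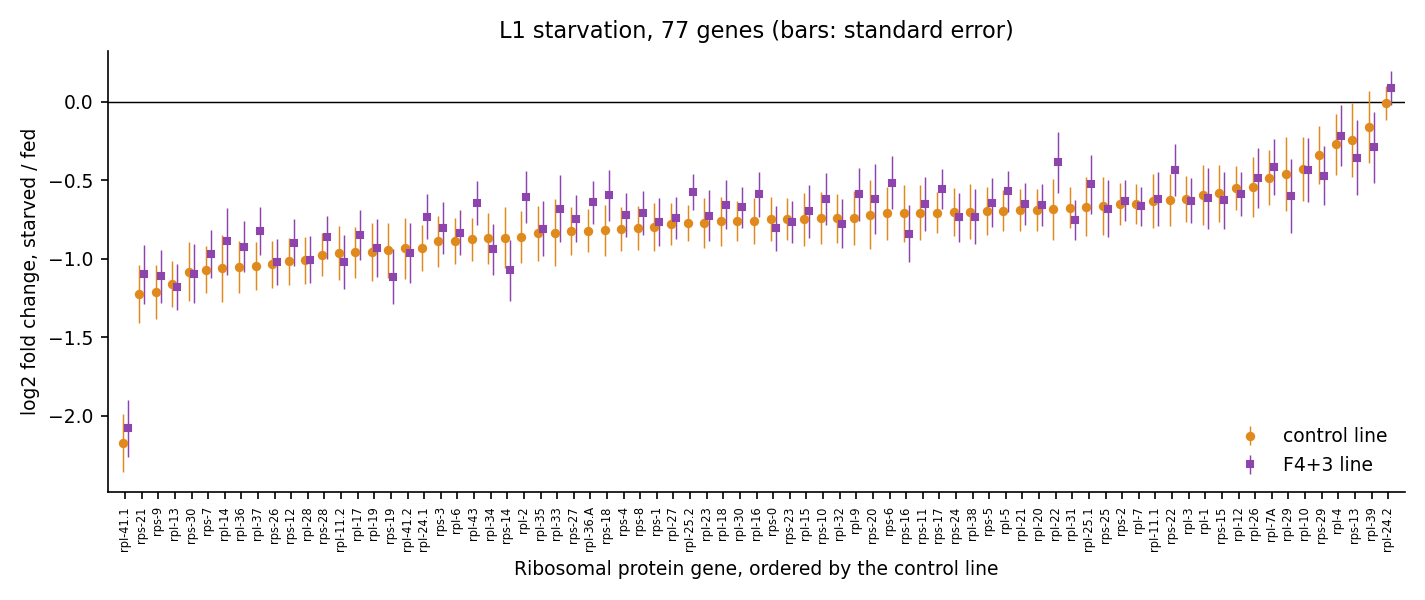
Log2 fold change of starved over fed L1 larvae on the vertical axis for each of 77 ribosomal protein genes, ordered by the value in control larvae, with bars of 1 standard error of limma. Circles are control larvae and squares are F4+3 larvae (3 libraries per group), and nearly all points lie below 0 in both lines, from rpl-41.1 at -2.17 and -2.08 to rpl-24.2 at -0.01 and 0.09.

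Library scaling moved the median of all genes in the control comparison between -0.02 and 0.34. A scale factor shifts all genes of a library alike. The member median relative to that of all genes thus hardly depends on it, and is no check of the scaling. Over the scalings it was -0.80 to -0.79 in controls and -0.71 to -0.70 in F4+3 larvae. Without the filter on low values, which changes the genes compared, it was -0.93 and -0.80. Without control fed replicate 1, the library with the highest ribosomal protein share, 68 of 77 genes were still lower in starved controls, with a median of -0.59. Markers of cuticle formation moved with starvation as well. The summed count of 15 hypodermis and cuticle genes was 190623 to 193548 in fed and 57289 to 75672 in starved controls, and 185294 to 237820 and 79091 to 107738 in F4+3 larvae, with none of these genes at 0 in any group. Other lists moved in both directions. Without overlap in both lines, summed intestine and germline markers were lower in starved larvae, and summed neuron and early embryo markers were higher. The part of any of these lists in the result was not tested.

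The rest of the protein synthesis machinery was lower in starved larvae too, most of it with lower medians than the ribosomal proteins. Among the stalk proteins, the ubiquitin-fused proteins and rack-1, 6 of 6 genes were lower in both lines, with a median of -0.64 in each, led by rla-2 at -1.20 ± 0.13 (adjusted p = 3.13e-06) and -1.16 ± 0.13 (adjusted p = 4.39e-06). Of 28 initiation factor genes 27 were lower in both lines, with medians of -1.24 and -1.28, and of 19 cytosolic aminoacyl-tRNA synthetases all 19 were lower, with medians of -1.11 and -1.09. The lysyl-tRNA synthetase kars-1 changed by -2.27 and -2.25. Mitochondrial ribosomal proteins were lower for 67 and 66 of 70 genes, with medians of -1.15 and -1.12. Of 42 ribosome biogenesis genes 33 and 34 were lower and 5 and 4 higher, with medians of -1.05 and -1.27, and fib-1, the methyltransferase fibrillarin of the nucleolus, changed by -2.44 and -2.67. Elongation factors were lower for 6 of 9 genes and higher for 1 in both lines. Of the 10 genes of the TOR and S6 kinase list 1 was higher and 3 were lower in controls and 2 higher and 3 lower in F4+3 larvae, near the shares of 30.5% and 30.4% lower over all genes, and with library totals 5 were higher and 2 lower in both lines. Its median turned sign with the scaling (-0.13 to 0.24 and -0.02 to 0.29), while the medians of the other lists named here were below 0 under every scaling and tool tried. Within it larp-1, whose mammalian counterpart binds the messages of ribosomal proteins, was lower, at -0.90 ± 0.11 (adjusted p = 5.93e-06) and -1.03 ± 0.11 (adjusted p = 1.53e-06). No test compared these lists with the ribosomal proteins.

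No member of the family was called between larvae of starved and of fed ancestry. Between F4+3 and control larvae, 0 of 77 genes were called when fed and 0 of 77 when starved, where limma called 0% of all genes higher and 0.0126% lower when fed, and 0% in either direction when starved. This fit called almost no gene of any kind, whereas the study reports more genes at this threshold with DESeq2. The counts of 0 therefore say little about the members alone. At an unadjusted p under 0.05 there were 0 and 1 of 77 genes, and edgeR and DESeq2 on the recovered reads called 0 in both. The median log2 fold change of the members was -0.08 in fed and -0.02 in starved larvae, and single genes ranged from 0.829 to 1.24-fold when fed and from 0.765 to 1.32-fold when starved. In fed larvae 58 of 77 members lay below 0 and 62 below the median of all genes, and in starved larvae 47 and 48. Relative to that median the fed member median ran from -0.10 to -0.09 over the scalings and tools tried, a value that a scale factor common to all genes hardly changes. The members share the same libraries, and this small shift was not tested. The 95% interval lay within a log2 change of 0.5 either way for 55 of 77 genes in fed and 60 of 77 in starved larvae. Differences within these intervals are not excluded, and how small a difference 3 libraries per group can show was not computed. The starvation effect itself, tested as an interaction, differed between the lines for 0 of 77 genes (0% of all genes in either direction), with 0 at an unadjusted p under 0.05, 0 by edgeR and 0 by DESeq2, a median difference of 0.05 and intervals reaching a median of 0.49 on either side. The highest value among the members in both ancestry comparisons was that of rpl-41.1, at 0.31 in fed and 0.40 in starved larvae, and neither passed.

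The adult comparisons set F4 L1starved animals with eggs and without eggs beside always-fed controls and beside each other. In fertile F4 L1starved adults 28 of 78 ribosomal protein genes were lower and 1 was higher than in control, where 12% of all genes were lower and 9.86% higher. The median was -0.30 for the members and -0.11 for all genes, and 16 of 47 large and 12 of 31 small subunit genes were lower. With upper-quartile scaling 18 genes were lower and 2 higher, with a median of -0.04. Scaling moved the median of all genes between -0.11 and 0.15. The member median relative to it, which a scale factor common to all genes hardly changes, was -0.20 to -0.19 over the scalings. It was -0.21 with edgeR and DESeq2 and -0.24 without the filter on low values. The very short members led. For rpl-41.2 the counts were 10759, 8875 and 8586 in control and 4812, 1724 and 1283 in fertile adults, and for rpl-41.1 they were 1806, 1673 and 1549 and 1126, 521 and 418. Fertile libraries all lay below the controls, and fertile replicate 1 lay well above its fellows. The log2 fold changes were -2.09 ± 0.37 (adjusted p = 0.00451) and -1.42 ± 0.29 (adjusted p = 0.00857).

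The zinc-binding small subunit protein gene rps-29 followed, with counts of 4329, 4413 and 3967 in control and 2629.5, 1445 and 1259 in fertile adults. The fertile libraries were again lower without overlap, replicate 1 the least so, for a difference of -1.33 ± 0.22 (adjusted p = 0.00294) on the log2 scale. Among other members, rpl-36 changed by -0.85 ± 0.14 (adjusted p = 0.00279), rpl-36.A, which shares only its number with rpl-36, by -0.94 ± 0.15 (adjusted p = 0.00248), and rpl-24.1 by -0.86 ± 0.13 (adjusted p = 0.00207). The most abundant members did not pass, with log2 fold changes of -0.12 for rpl-3 (adjusted p = 0.545) and -0.04 for rpl-4 (adjusted p = 0.857). Counts of rps-6 were 9132, 8364 and 7366 in control and 6206, 7809.8 and 7264 in fertile adults, which overlapped, at -0.23 ± 0.14 (adjusted p = 0.247). The only member called higher was the X-linked rpl-11.2. The X-linked rpl-25.1 was higher without overlap but did not pass on the deposited scale. The count of 28 lower genes depended on the libraries used, and 19 of 78 genes were called without control replicate 1 or without control replicate 2, against 44 when sterile replicate 1 was left out of the common fit.

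In sterile F4 L1starved adults 48 of 78 genes were lower and 3 higher than in control, where 41.8% of all genes were lower and 41.3% higher, but with upper-quartile scaling of the libraries 46 were higher and 8 lower. The 3 higher genes on the deposited scale were rpl-11.2, rpl-25.1 and rpl-42. The call of rpl-42 is no support, since only its sterile libraries lifted its mean over the filter. Scaling moved the median of all genes in this comparison between -0.13 and 0.78. Relative to that median the member median was -0.51 on the deposited scale and -0.51 to -0.49 over the other scalings. A scale factor shifts all genes of a library alike, so this value could hardly change and is no support for a direction. It was -0.55 with edgeR and DESeq2 and -0.63 without the filter on low values. On the deposited scale 28 of 47 large and 20 of 31 small subunit genes were lower. The sterile counts of rpl-41.2, 2808, 2071 and 1836, and of rps-29, 1476, 1554 and 1301, lay in the range of the fertile animals and below the controls, with log2 fold changes of -2.09 ± 0.37 (adjusted p = 0.000221) and -1.56 ± 0.22 (adjusted p = 3.11e-05). Those of rps-6, 5781, 7569 and 7736, overlapped the control values, at -0.24 ± 0.14 (adjusted p = 0.123).

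Between sterile and fertile F4 L1starved adults, a contrast in which 39.6% of all genes were lower and 38.8% higher, only 3 of 78 ribosomal protein genes were lower and 3 higher. The median was -0.03 for members and 0.10 for all genes, and for 67 of 78 genes the 95% interval lay within a log2 change of 0.5 either way. This near absence of calls held for scaling on the deposited scale, TMM, edgeR and DESeq2, which gave 6 calls each, but with library totals 63 genes were lower and 3 higher, with totals that leave out the family 64 lower and 3 higher, and with upper quartiles 68 higher and 2 lower. Over these settings the median of all genes ran from -0.22 to 0.48. The member median relative to it, which a scale factor common to all genes hardly changes, ran from -0.13 to -0.11. Without the filter on low values it was -0.19. The 6 genes called on the deposited scale were rpl-11.1, rpl-25.2 and rpl-24.2, which were lower, and rpl-11.2, rpl-25.1 and rpl-42, which were higher. Only the sterile libraries lifted the mean of rpl-42 over the filter, so its call, here and with the block below, is no support. Same-numbered fertile and sterile libraries deviated together, and with the replicate number as a block in a limma fit of these 6 libraries, chosen after seeing the data, all 6 genes passed again and 2 more were lower, rpl-12 at -0.25 ± 0.0585 (adjusted p = 0.004385) and rps-2 at -0.20 ± 0.0559 (adjusted p = 0.01187). The comparisons of fertile and of sterile adults with control used the same 3 control libraries.

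Of these 6 genes, 4 form pairs of paralogs in which an autosomal and an X-linked gene encode versions of the same protein. RPL-11 binds the 5S ribosomal RNA, and its genes rpl-11.1 (chromosome V) and rpl-11.2 (X) both have 588 coding nucleotides. Counts of rpl-11.1 were 5609.5, 5210.4 and 4856 in control, 3375, 4886 and 4541 in fertile and 1638, 2682 and 2592 in sterile adults. Those of rpl-11.2 were 1061, 1155 and 1059, 1547, 1673 and 1559.5 and 3094, 3665 and 3691. The 3 groups of rpl-11.2 did not overlap and rose from control over fertile to sterile, while rpl-11.1 was lowest in sterile animals and its fertile values overlapped the controls.

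In fertile adults rpl-11.1 differed from control by a log2 fold change of -0.31 ± 0.19 (adjusted p = 0.242), in sterile adults by -1.21 ± 0.19 (adjusted p = 7.86e-05), and sterile from fertile adults by -0.91 ± 0.19 (adjusted p = 0.000933). For rpl-11.2 these values were 0.55 ± 0.11 (adjusted p = 0.0066) and 1.67 ± 0.11 (adjusted p = 2.35e-07), a 3.18-fold level in sterile animals, and 1.12 ± 0.11 (adjusted p = 5.89e-06) between them. These signs were the same under every scaling and tool tried. The autosomal copy thus held 82.7% ± 1.23 of the pair in control, 72.5% ± 3.4 in fertile and 39.4% ± 4.16 in sterile adults.

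RPL-25, called RPL23A in mammals, sits at the mouth of the exit tunnel, and its genes rpl-25.2 (chromosome I) and rpl-25.1 (X) have 438 and 441 coding nucleotides. Counts of rpl-25.2 were 7468, 6786 and 5819.9 in control, 3835, 3994 and 3261 in fertile and 1809, 2657 and 2386 in sterile adults, and those of rpl-25.1 were 612, 598 and 600.3, 711, 734 and 647 and 1530.2, 1697 and 1773. The autosomal gene fell from group to group without overlap and the X-linked gene rose without overlap. The log2 fold changes over control were -0.85 ± 0.15 (adjusted p = 0.00456) and -1.56 ± 0.15 (adjusted p = 1.87e-06) for rpl-25.2, and 0.21 ± 0.11 (adjusted p = 0.177) and 1.46 ± 0.11 (adjusted p = 3.98e-07) for rpl-25.1, whose fertile value passed with TMM, upper quartiles and edgeR, at 0.34 to 0.47. Between sterile and fertile animals they were -0.71 ± 0.15 (adjusted p = 0.00115) and 1.26 ± 0.11 (adjusted p = 4.1e-06). The autosomal copy held 91.7% ± 0.913 of the pair in control, 84.1% ± 0.573 in fertile and 57.5% ± 3.43 in sterile adults.

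In larvae the X-linked copies of both pairs took a larger mean part than in any adult group, though the rpl-25 shares of larval and sterile adult libraries overlapped. What lies behind the difference between larvae and adults was not tested. The autosomal copy made up 2.58% ± 0.171 of the rpl-11 pair in fed and 3.28% ± 0.762 in starved controls, and 2.66% ± 0.401 and 3.46% ± 0.24 in F4+3 larvae. Counts of rpl-11.2 were 79191, 44870.2 and 57581 in fed and 28914, 27677 and 34525 in starved controls, against 2112, 1265 and 1416 and 1121, 1068 and 851 for rpl-11.1, and both copies were lower in starved larvae, at -0.96 ± 0.17 (adjusted p = 0.000295) and -0.63 ± 0.17 (adjusted p = 0.00623), the latter not passing with library totals. The rpl-25 pair was near balance, with 53% ± 6.02 and 51.2% ± 1.36 from the autosomal copy in fed and starved controls and 55.2% ± 3.12 and 54.4% ± 4.47 in F4+3 larvae. Both of its genes were lower in starved controls, at -0.77 ± 0.11 (adjusted p = 4.6e-05) and -0.67 ± 0.19 (adjusted p = 0.00808).

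Duplicated translation factors outside the family were set beside these pairs. Elongation factor eEF1A, which delivers aminoacyl-tRNA to the ribosome, is encoded by eef-1A.1 (III) and eef-1A.2 (X), and the autosomal copy held 95.8% ± 0.252 in control, 92.8% ± 1.12 in fertile and 88% ± 1.95 in sterile adults. The poly(A)-binding proteins pab-1 (I) and pab-2 (X) gave 92.5% ± 0.298, 88.2% ± 1.33 and 82.7% ± 2.28. Both X-linked copies were higher in sterile than in control adults, eef-1A.2 by 1.07 ± 0.10 (adjusted p = 1.59e-06) and pab-2 by 1.15 ± 0.10 (adjusted p = 7.3e-07). The eIF5A genes iff-1 (III) and iff-2 (II), of which neither is X-linked and iff-1 is needed for germ cell proliferation, gave 84.8% ± 1.39, 66.3% ± 3.29 and 31.3% ± 2.52 for iff-1. In fed and starved control larvae eef-1A.1 held 60.7% and 81.0% of its pair, pab-1 90.7% and 87.3%, and iff-1 1.36% and 1.15%. In F4+3 larvae these shares were 55.75% and 77.2%, 90.9% and 87.6%, and 1.295% and 1.16%. In each of these 5 pairs the libraries of the 3 adult groups did not overlap, and each exact two-sided permutation test of 3 against 3 libraries gave p = 0.1, the smallest it can give (adjusted p = 0.161 over the 45 pair comparisons computed). The other pairs computed, rpl-24, rpl-41, rpl-7 and rpl-36, were formed only by a shared number in the name. Each overlapped in some adult comparison. Lack of overlap was common, as 42.7% of all single genes were lower and 43.3% higher without overlap in sterile against control adults. The fall of summed oocyte and egg markers and the rise of muscle markers over the same groups is given above, and its part in these shares was not tested.

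**Figure D3:**
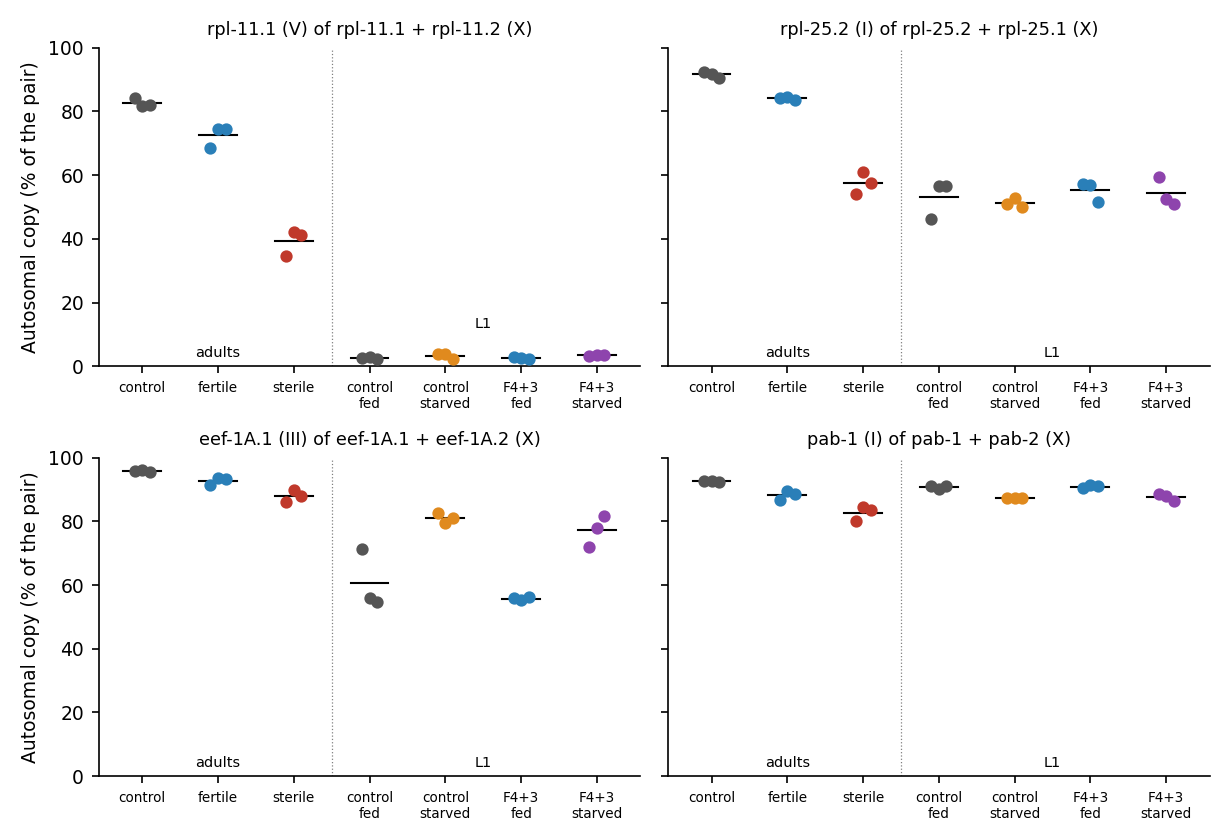
Share of the autosomal copy in the summed normalized counts of 4 gene pairs, in percent on the vertical axis, for each library of 3 adult groups (left of the dotted line) and 4 L1 groups (right). Points are libraries and lines are means of 3 libraries, and in all 4 pairs the share is highest in control adults and lowest in sterile adults among adults, from 82.7% to 39.4% for rpl-11.1 and from 91.7% to 57.5% for rpl-25.2.

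The remaining called genes between sterile and fertile adults were rpl-24.2 and rpl-42. Counts of rpl-24.2 were 576, 559.9 and 482 in control, 399, 532 and 471 in fertile and 272, 357 and 358 in sterile adults. Sterile libraries lay below all others, with log2 fold changes of -0.72 ± 0.16 (adjusted p = 0.00115) over control and -0.51 ± 0.16 (adjusted p = 0.0117) over fertile animals, neither of which passed under upper-quartile scaling, and the latter not without fertile replicate 2 either, at -0.41. The gene rpl-42 was hardly read at all outside sterile adults, with 0, 1 and 0 whole reads in control, 1, 3 and 0 in fertile and 27, 6 and 56 in sterile libraries. Larval libraries held 0 to 8 reads of it. It is therefore a member by name with almost no RNA in these animals, its higher call in sterile adults rests on 6 to 56 reads per library, and no fold change is given.

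The adult differences varied with the length of the gene. Of the 11 members with less than 300 coding nucleotides 10 were lower in fertile adults than in control, with a median log2 fold change of -0.91, and of the 20 members with at least 600 nucleotides 2 were lower, with a median of -0.18. Among other genes 24.6% of 480 short and 9.94% of 10578 long genes were lower, with medians of -0.44 and -0.07, so the count of long members was at the share of long genes in general. Spearman's correlation of fold change with coding length was 0.51 over 78 members and 0.18 over 13002 other genes, across genes that share the same libraries. These length classes were chosen after the values were seen.

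In sterile adults 11 of the 11 short members and 7 of the 20 long ones were lower than in control, with medians of -0.98 and -0.22 (rho = 0.44 over 78 members), whereas on the deposited scale 31.2% of other short and 43.0% of other long genes were lower and other short genes had a median of 0.35 (rho = -0.03 over 13002 genes). The count of long members was thus below the share of long genes in general. With upper-quartile scaling the median was -0.32 for short members and turned to 0.44 for long ones, as for single long members such as rpl-3 at 0.52, rpl-4 at 0.61 and rps-6 at 0.41. Between sterile and fertile adults the medians of short and long members were 0.00 and -0.02, and 0.39 and 0.37 with upper quartiles. In fertile adults against control, upper quartiles gave -0.65 and 0.08. In larvae the length classes lay closer together, with medians under starvation of -0.88 and -0.73 for short and long members in controls (rho = 0.20 over 77 members) and -0.74 and -0.64 in F4+3 larvae (rho = 0.21). Coding lengths are those of the WBcel235 annotation, matched by gene identifier for all members and for 97.5% of other genes tested in adults. The part of library preparation in the length pattern was not tested.

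**Figure D4:**
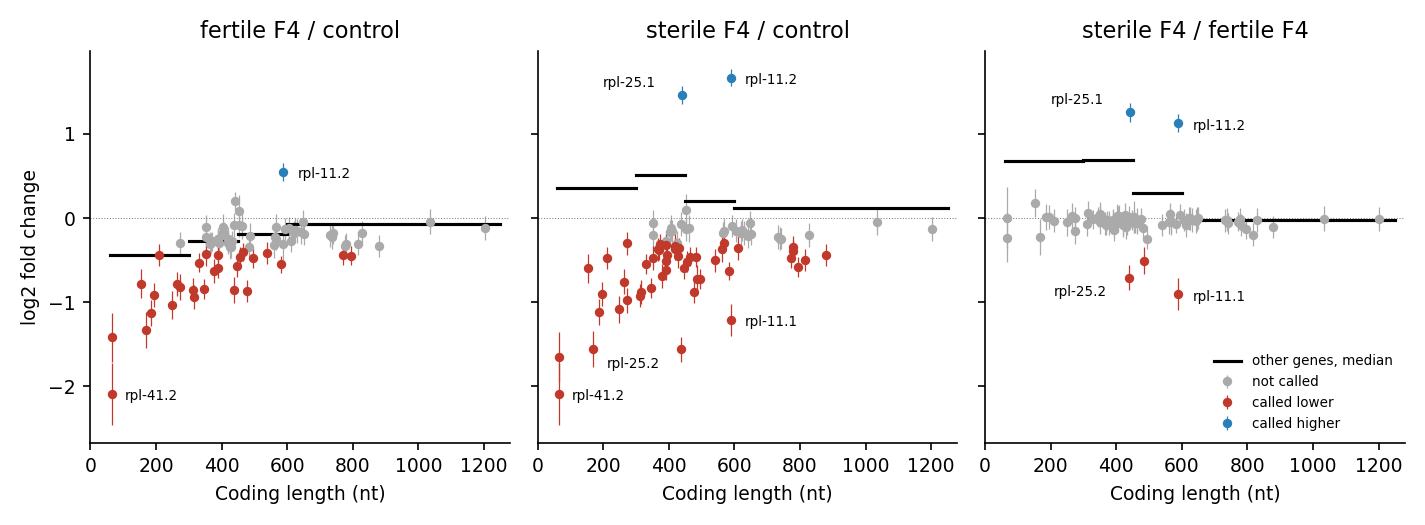
Log2 fold change of ribosomal protein genes against coding length in nucleotides for the 3 adult comparisons, with bars of 1 standard error of limma. Points are genes (rpl-42 is left out), colored by call on the deposited scale, where sterile libraries turn to mostly higher under upper-quartile scaling, and black lines are medians of all other genes in 4 length classes. Short members are lowest against control in both F4 L1starved groups (-0.91 and -0.98 under 300 nucleotides) and near 0 between sterile and fertile animals, where the pairs rpl-11 and rpl-25 stand out.

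Other parts of the protein synthesis machinery had lower medians than the cytosolic ribosomal proteins in sterile against control adults. On the deposited scale 67 of 69 mitochondrial ribosomal protein genes were lower in sterile adults with a median of -1.18, 41 of 42 ribosome biogenesis genes with a median of -1.33, 24 of 28 initiation factors with a median of -0.92 and 18 of 19 aminoacyl-tRNA synthetases with a median of -0.97. For the 78 ribosomal proteins the median was -0.37, and 41.8% of all genes were lower. The biogenesis gene nol-16 stood at -1.95 ± 0.15 (adjusted p = 4.58e-07) and the asparaginyl-tRNA synthetase nars-1 at -1.56 ± 0.11 (adjusted p = 3.66e-07). Of the 6 genes of stalk proteins, fused proteins and rack-1, 3 were lower, near the share over all genes, with a median of -0.41, among them ubq-2 at -0.57 ± 0.12 (adjusted p = 0.000909). Of 10 TOR and S6 kinase genes 9 were lower and 1 higher, and daf-15, the Raptor subunit of TOR complex 1, stood at -1.42 ± 0.13 (adjusted p = 1.39e-06). With upper-quartile scaling these medians stayed below 0, except for the stalk, fused and rack-1 list at 0.25 and the cytosolic ribosomal proteins at 0.29, and the numbers of lower genes were smaller, at 48 mitochondrial ribosomal proteins, 37 biogenesis genes, 17 initiation factors, 15 synthetases and 7 TOR genes. Then 4 initiation factors, 3 genes of the stalk, fused and rack-1 list and 1 gene each of the mitochondrial, biogenesis, synthetase and TOR lists were higher. Of 9 elongation factors 7 were lower and 2 higher on the deposited scale, with a median of -0.55. That median turned to 0.11 with upper quartiles, where 3 were higher and 1 lower.

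In fertile adults the same lists moved less. There 27 of 69 mitochondrial ribosomal proteins were lower with a median of -0.43, led by mrpl-51 at -1.02 ± 0.13 (adjusted p = 0.00138), and 8 of 42 biogenesis genes (median -0.28), 9 of 28 initiation factors (-0.29), 3 of 19 synthetases (-0.30), 2 of 10 TOR genes and 3 of 6 genes of stalk proteins, fused proteins and rack-1 (-0.36) were lower, where 12% of all genes were. With upper quartiles only 9 mitochondrial ribosomal proteins (median -0.16), 2 biogenesis genes (-0.01, with 1 other higher), 2 initiation factors (-0.02, with 2 others higher), 1 synthetase (-0.04), 1 TOR gene and 1 of the stalk, fused and rack-1 list (-0.09) were lower. Between sterile and fertile adults 61 of 69 mitochondrial ribosomal proteins and 41 of 42 biogenesis genes were lower, with medians of -0.68 and -1.07, where the cytosolic ribosomal proteins had a median of -0.03. Over all genes 39.6% were lower in this contrast. With upper quartiles the medians of both lists were -0.29 and -0.68, with 30 and 38 genes lower. Germline markers fell alongside, for 8 of 25 genes in fertile and 25 of 25 in sterile adults against control, with medians of -0.48 and -1.69, where 12% and 41.8% of all genes were lower, and for 4 and 23 genes with upper quartiles (medians of -0.21 and -1.04). Their part in the machinery's values was not tested.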

How the data were processed

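RNA of 9 adult and 12 L1 libraries was analysed. The authors used Subread for alignment to the WS220 genome, featureCounts for counting and DESeq2 for normalization, with versions not given in the sources used here. The deposited signal per gene and library is the DESeq2-normalized count, a count divided by a size factor. Deposited log2 fold changes, p-values and adjusted p-values are the authors' own DESeq2 comparisons and were not used. Damaged rows (3 in adults, 1 in L1) were left out. Whole reads were recovered from each library's step, and 100% of values came out whole within 0.1.

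Groups were compared with limma 3.58.1 in R 4.3.3 on log2(normalized count + 1) of genes whose mean reached 10, all groups of an experiment in 1 fit, with Benjamini-Hochberg adjustment over all genes tested. The fit was tested on simulated data. Alternatives were pseudocounts of 0.5 and 5, no filter, 4 other scalings, edgeR 4.0.16 and DESeq2 1.42.0 on recovered reads, a replicate block, only the groups compared, and leaving out each library. Fertile and sterile adults were picked from the same plate per the study's methods, and their same-numbered libraries deviated together, with correlations of 0.175 to 0.384 against -0.245 to 0.099 for other numbers, and were also fitted as pairs. Numbers of the other groups were not taken as pairs.

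The members and all lists were chosen with earlier results of these data known, and lists were matched by name. Text names, per comparison, the 3 highest and 3 lowest members, members whose names share a number, rps-6, the members with the 3 highest and 3 lowest mean counts, and up to 3 called genes of smallest p per other list. Some others (such as rps-29, rpl-29, rps-13, rpl-22, rpl-4, nars-1, kars-1 or daf-15 in a given comparison) were added after their values were seen. Gene lengths and chromosomes come from the WBcel235 annotation, with no coordinates or sequences used here.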

Additional observations from a re-analysis of the deposited data

How the results depend on the processing

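Counts of called ribosomal protein genes in adults depended on how the libraries were scaled. For fertile against control adults 28 genes were lower and 1 higher, and 18 lower and 2 higher with upper quartiles. With only the control and fertile libraries in the fit, 38 were lower and 1 higher. For sterile against control adults 51 genes were called, 77 (74 lower) with scaling by library totals or by totals without the family, 33 by edgeR on recovered reads, and 54 with upper quartiles, of which 46 were higher. For sterile against fertile adults 6 were called, but 66 with library totals, 67 with totals without the family and 70 with upper quartiles. Leaving out each library gave 19 to 44 for fertile against control (29 with all libraries), 39 to 52 for sterile against control, 5 to 8 for sterile against fertile, 68 to 73 for starvation in controls, 65 to 75 in F4+3 larvae and 0 to 0 in the ancestry comparisons and their interaction.

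Under upper-quartile scaling signs turned in sterile against control adults for rpl-7 (0.43), rpl-7A (0.0758), rps-6 (0.41), rpl-4 (0.61), rps-8 (0.51), rpl-3 (0.52), eef-1A.1 (0.11) and pab-1 (0.44). In sterile against fertile adults they turned for rpl-24.1 (0.38), rpl-36 (0.32), rpl-7 (0.36), rpl-7A (0.26), rps-6 (0.37), rpl-4 (0.38), rps-8 (0.39), rpl-3 (0.38), eef-1A.1 (0.0058) and pab-1 (0.32). In larvae the sign of rpl-24.2 in controls turned with library totals (0.30), upper quartiles (0.24) and totals without the family (0.24), and that of pab-2 in controls with the same scalings (0.0712, 0.0133 and 0.0085) and in F4+3 larvae with library totals (0.0301) and upper quartiles (0.0087). The cause of these differences between scalings was not tested.

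The share of the family without the 10 largest other genes moved to 4.99%, 4.58% and 4.60% in control, fertile and sterile adults and to 10.23%, 13.8% and 10.05% in control starved, F4+3 fed and F4+3 starved larvae, and without ribosomal RNA and yolk genes to 4.91%, 4.51% and 4.49% in adults. Same-numbered libraries of the other pairs of groups correlated at -0.29 to 0.03 in adults and -0.16 to 0.17 in larvae, and in none were all 3 over 0.1. The replicate block gave 30, 53 and 6 calls in the 3 adult comparisons and 71 and 73 under starvation, and 25, 38, 6, 71 and 70 in edgeR, all within 1.5 times the count without it, as were the 8 calls between sterile and fertile adults with a block over these 6 libraries alone, and it changed no call of the genes named by rule in that contrast. With 3 libraries per group, members with a few reads such as rpl-42 are limited by depth.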
